A study of Mus musculus with 18 samples.

Results

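The embryonic hippocampus was profiled by RNA sequencing in 6 of the 18 samples of the series: 3 wild-type (WT) and 3 Arid1a conditional knockout (cKO) libraries from C57BL/6 mice at embryonic day 16.5 (E16.5). They were chosen by their labels, as the columns cKO-1 to cKO-3 and WT-1 to WT-3 of the count table of that age. The other 12 samples are 4 RNA libraries at 3 weeks after birth (P21; 2 WT and 2 cKO) and 8 ChIP-seq samples at 3 weeks, with no replicates. The driver of the deletion, the cells it reached, the allele carried by the WT animals, the sex of the embryos and any pooling of embryos are not given in the sources used here. Levels are in CPM, a gene's counts divided by the scaled library size per megacount. Changes are log2 ratios of cKO to WT, and their standard errors (SE) are approximations from edgeR's quasi-likelihood F test. A gene is said to have risen or fallen where the Benjamini-Hochberg adjusted p of that test was under 0.05.

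Arid1a codes for a DNA-binding protein of BAF, the mammalian SWI/SNF complex, which slides and evicts nucleosomes at promoters and enhancers. At this age the hippocampal wall holds radial glia, the stem cells that line the ventricle, and intermediate progenitors that express Neurog2 and Eomes. It also holds young pyramidal neurons and the first dentate granule cells. The cortical hem, the choroid plexus and the meninges adjoin it and are easily carried along in dissection.

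The promoters of Neurog1, Ptx3 and Bcan are shown because results below turn on them: a proneural factor and a pentraxin that rose, and a proteoglycan that fell. Each runs 5′ to 3′ along its gene, from 250 bases before to 50 after a RefSeq start (GRCm38.p6), with E-boxes (CANNTG, the letters that basic helix-loop-helix factors read) in capitals. They lie at chr13:56252131-56252430 (minus strand), chr3:66219637-66219936 (plus strand) and chr3:88000307-88000606 (minus strand). The Bcan start used, at 88000356, lies inside the gene, whose 5′ end is at 88002175.
Neurog1: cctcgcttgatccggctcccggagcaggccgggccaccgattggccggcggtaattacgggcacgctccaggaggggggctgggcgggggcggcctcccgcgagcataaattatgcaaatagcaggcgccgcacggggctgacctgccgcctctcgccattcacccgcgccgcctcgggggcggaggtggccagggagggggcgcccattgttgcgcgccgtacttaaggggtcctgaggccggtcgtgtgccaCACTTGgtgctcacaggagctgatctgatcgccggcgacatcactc
Ptx3: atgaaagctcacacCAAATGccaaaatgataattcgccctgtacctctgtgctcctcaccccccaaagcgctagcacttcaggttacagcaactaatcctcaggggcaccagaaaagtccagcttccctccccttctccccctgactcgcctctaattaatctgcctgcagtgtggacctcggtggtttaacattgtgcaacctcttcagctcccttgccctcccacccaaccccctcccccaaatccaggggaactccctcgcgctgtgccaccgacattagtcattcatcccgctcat
Bcan: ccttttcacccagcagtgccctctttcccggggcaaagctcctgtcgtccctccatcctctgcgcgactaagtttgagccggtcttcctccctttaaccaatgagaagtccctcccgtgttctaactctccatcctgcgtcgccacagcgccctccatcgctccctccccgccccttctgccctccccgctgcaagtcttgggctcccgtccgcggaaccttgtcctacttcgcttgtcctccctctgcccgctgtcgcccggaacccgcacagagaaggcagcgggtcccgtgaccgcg
Neurog1 and Ptx3 each held 1 E-box and Bcan held 0, counted on both strands, while 72.3% of 32851 mouse promoters of the same 300 bases held at least 1. None of the 3 held an AP-1 match (TGANTCA, in 7.81% of promoters) or a TATA box (TATAAA, in 13.6%). Their GC content was 69.3%, 54.7% and 64.0%. A match describes the letters of the window only.

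The 6 libraries held unequal amounts of neighbouring tissue. Ttr, the main choroid plexus transcript, had 4566, 3070 and 16.3 CPM in WT-1, WT-2 and WT-3 and 0.953, 27.1 and 2336 CPM in cKO-1, cKO-2 and cKO-3. Col3a1, a collagen of meningeal fibroblasts, had 248, 27.2 and 56.3 CPM in WT and 3.03, 3.17 and 15 CPM in cKO. The genotypes thus overlapped for Ttr and did not for Col3a1. Over the 20 meningeal genes the WT libraries had mean log2 CPM of 6.12, 2.91 and 3.11 and the cKO libraries of -0.15, 0.81 and 2.24, and the summed level ran from 483 to 3480 CPM in WT and from 91.7 to 315 CPM in cKO. For 15 tested choroid plexus genes the WT means were 5.35, 4.80 and 0.34, and the cKO means -1.36, 0.49 and 4.58. WT-2 and cKO-3 were the WT and cKO libraries nearest each other in the meningeal list, and they lay close in the choroid plexus list, so their difference is given below as a value at like tissue content. It has 1 library each and no test, was chosen after the values were seen, and sets a library with Xist against one without. The difference is of log2 CPM with a prior count of 2, which draws genes with few counts toward 0. Fitted changes do not use that prior count. Fewer cells of a type and less RNA per cell cannot be told apart in these bulk libraries.

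**Figure D1:**
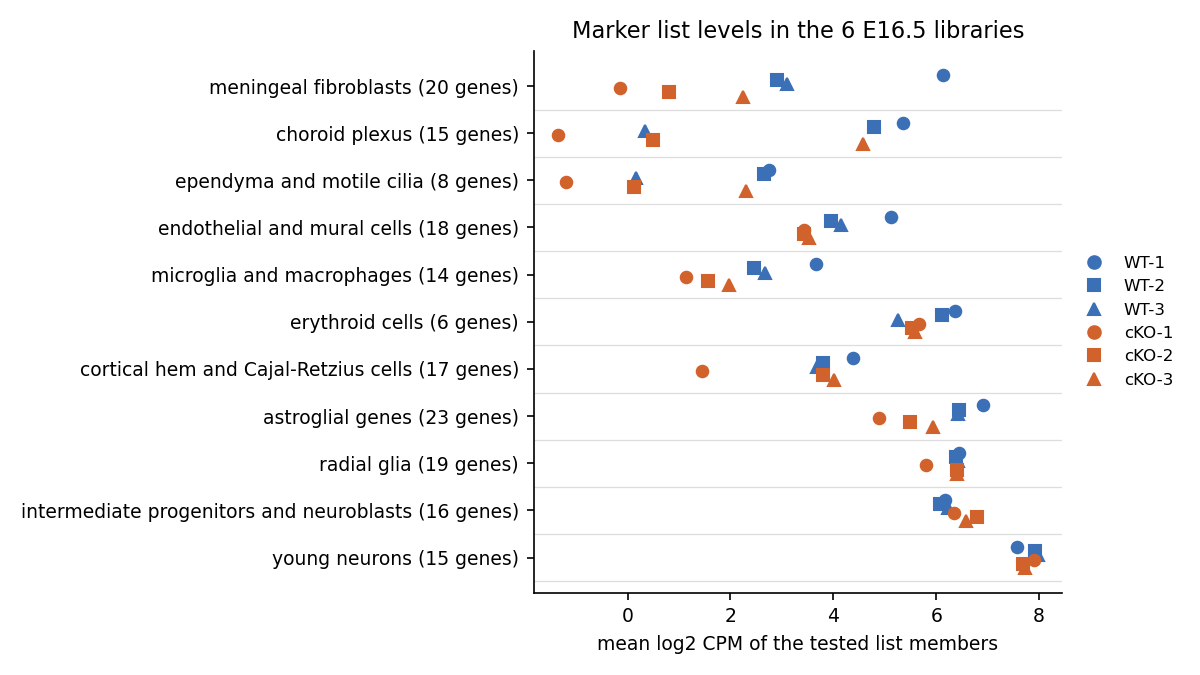
Mean log2 CPM (x axis) of the tested members of each marker list (y axis) in the 6 E16.5 libraries, WT in blue and cKO in orange, with a symbol per replicate number. The WT and cKO libraries are apart for meningeal, endothelial and microglial lists, mixed for choroid plexus and ependyma, and cKO-1 is alone at 1.45 in the list of cortical hem and Cajal-Retzius cells.

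cKO-1 stood apart from the other 5 libraries in regional genes as well. Zbtb20, a transcription factor of hippocampal pyramidal identity, had 168 CPM there and 557 to 909 CPM in the others. Prox1, which sets dentate granule identity, had 12.5 CPM there against 26.6 and 33.6 CPM in the other cKO libraries and 55.1 to 71.9 CPM in WT. The list of cortical hem and Cajal-Retzius cells had a mean log2 CPM of 1.45 in cKO-1 and 3.68 to 4.39 in the others, while Pou3f1, a factor of CA1 and neocortical neurons, was highest there with 417 CPM against 72.2 to 185 CPM. The hippocampal genes Zbtb20, Prox1 and Lhx2 were detected in all 6 libraries, and so was Neurod6, a marker of pyramidal neurons, at 473 to 980 CPM. Zbtb20, Pou3f1, Lhx2 and Neurod6 were named here after their values were seen. Replicate 3 of both genotypes lacked Xist, the female-specific RNA, with 0.359 CPM in WT and 0.50 CPM in cKO against 364 to 470 CPM in the other 4 libraries.

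Arid1a itself (chromosome 4, 133679008 to 133756769, GRCm38) was reduced and not lost. It had 262, 282 and 285 CPM in WT and 180, 175 and 176 CPM in cKO, and the groups did not overlap. Its log2 change was -0.64 (SE 0.06, edgeR adjusted p = 0.0264). Counts are per gene, so they do not separate intact transcripts from ones that lack deleted exons. Of the other 29 BAF subunit genes 0 passed edgeR, with 9 higher and 1 lower at unadjusted p under 0.05 and 5 higher and 1 lower by DESeq2. At an unadjusted p under 0.05, 9.1% of the 16958 genes tested were higher and 11.7% lower. The actin-like subunit Actl6a had 31.5, 29.2 and 29.6 CPM in WT and 40.1, 41.1 and 37.9 CPM in cKO (log2 0.40, SE 0.07, edgeR adjusted p = 0.111). Smarcd3, a core subunit of differentiating cells, had a change of 0.58 and Dpf3, a PHD-finger subunit of neurons, one of -1.27. With the mean meningeal level of each library as a covariate Smarcd3 had 0.32, and the median of the 29 went from 0.13 to -0.01. The paralog Arid1b, which can take the place of Arid1a in the complex, had 87.8 to 96.2 CPM in WT and 97.8 to 126 CPM in cKO, a change of 0.28 (SE 0.10, edgeR adjusted p = 0.215; 0.10 with that covariate), named after its values were seen.

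Across all genes tested 5 rose and 36 fell, 0.0295% and 0.212% of the 16958 genes tested. For each of the 41 the WT and cKO libraries did not overlap, as for 29.2% of all genes tested, and 29 changed at least 2-fold. The 25 with the smallest p were named by rule, and the others, from Nxph4 on in the order of p, after their values were seen unless a gene list named them. The paragraphs below that set fallen genes side by side outside a list were arranged after the calls were known, and no such grouping was tested. The same test with edgeR's older estimate of the quasi-dispersion called 2 higher and 19 lower. DESeq2 called 352 higher and 714 lower, the same numbers as in the authors' deposited table. Of the 41, 40 were also DESeq2 calls. The direction of all 41 was the same in each of the 21 other fits, and their unadjusted p stayed under 0.05 in each. Passing the adjusted threshold depended on single libraries. edgeR called 0 higher and 1 lower without WT-1 (1000 and 1418 at unadjusted p under 0.05), 0 and 0 without WT-3 (1271 and 1928), 0 and 6 without cKO-2, 2 and 12 without cKO-3, 2 and 14 without cKO-1, and 4 and 7 without WT-2. Of the 41 genes, 14 passed in at least 1 of these 6 fits, and the highest adjusted p of each gene over them lay between 0.0730 and 0.277. Grp passed in 5 of the 6, Bcan in 4, and Neurog1, Inka2 and Slco1c1 in 3.

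**Figure D2:**
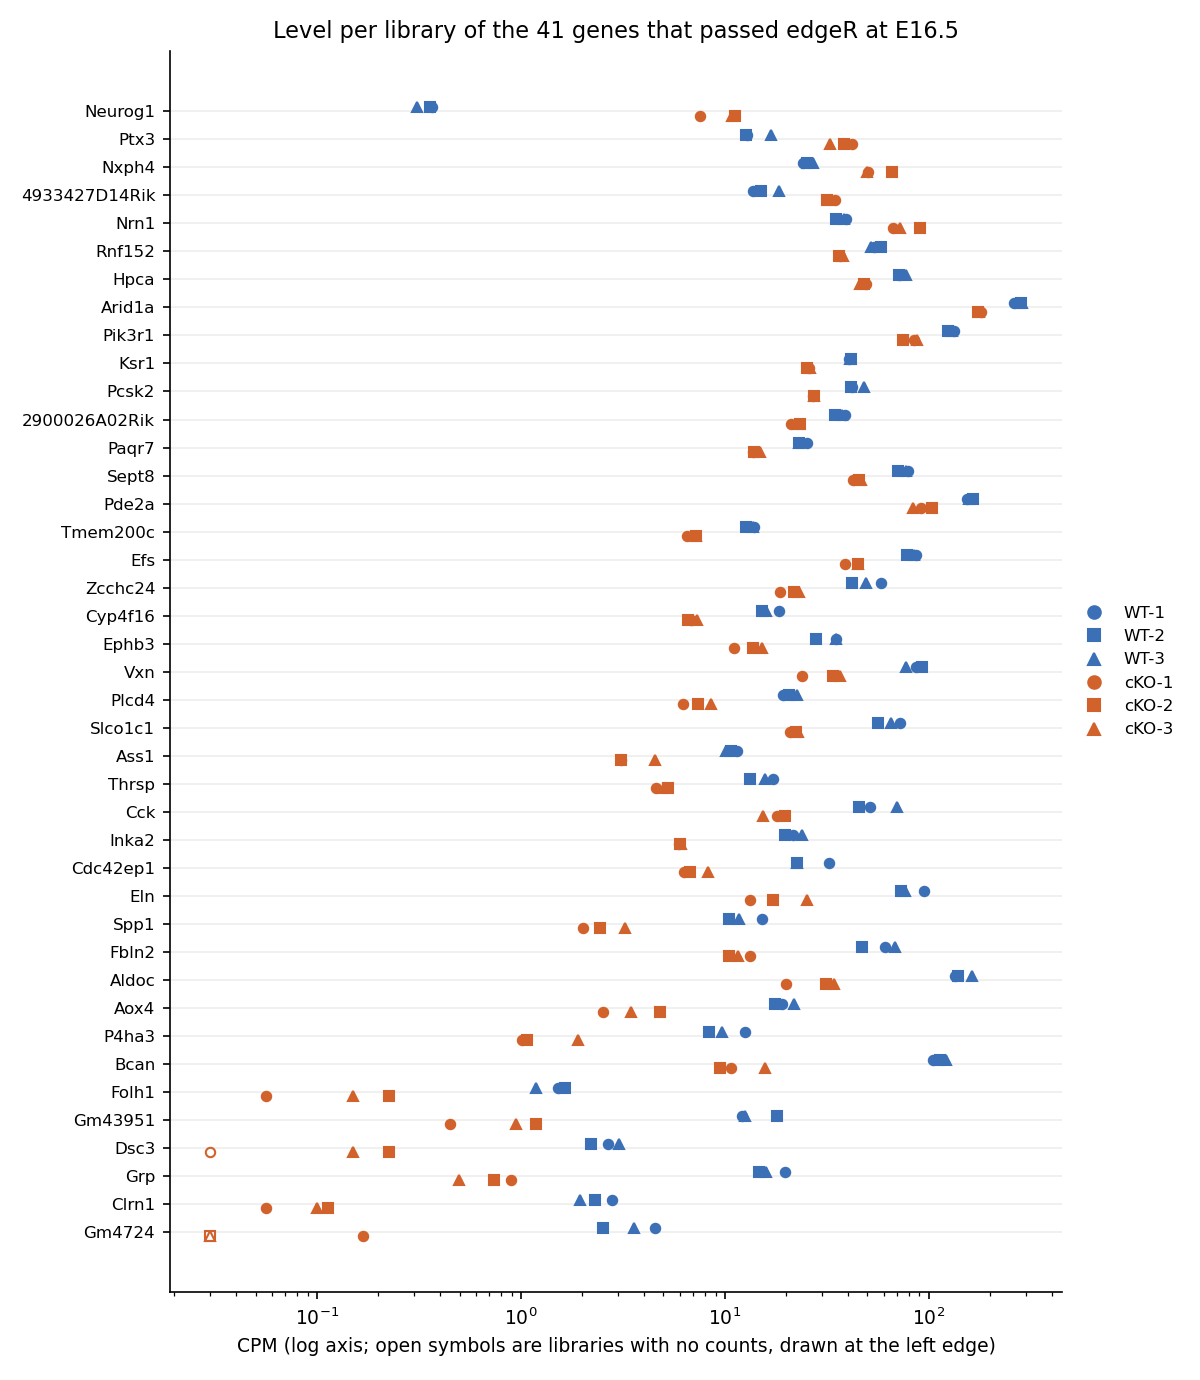
Level in CPM (log x axis) of each of the 41 genes that passed edgeR (y axis, ordered by change) in the 6 E16.5 libraries. WT points are blue and cKO points orange, and open symbols mark libraries with no counts. The top 5 genes have all cKO points to the right of the WT points, and the 36 below have them to the left.

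The meningeal difference between the genotypes was set beside these 41 genes directly. With the mean meningeal level of each library as a covariate, 0 genes passed edgeR (369 higher and 646 lower at unadjusted p under 0.05), and the 41 kept unadjusted p-values under 0.05 with changes of 0.692 to 1.16 times their size without it (median 0.913). Between cKO-3 and WT-2 alone, their differences were 0.681 to 1.28 times the change over all 6 libraries (median 0.855). The prior count in the pair values lowers these ratios for genes with few counts, so they do not reflect tissue content alone. The covariate is the mean of the meningeal list and the pair was picked as nearest in it, so the medians of that list by these measures, -0.03 and -0.50 against -3.27 over all 6 libraries, are fixed by that choice and are no comparison for the 41. The covariate also differs between the genotypes, and the part of tissue content in the 41 changes was not tested.

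**Figure D3:**
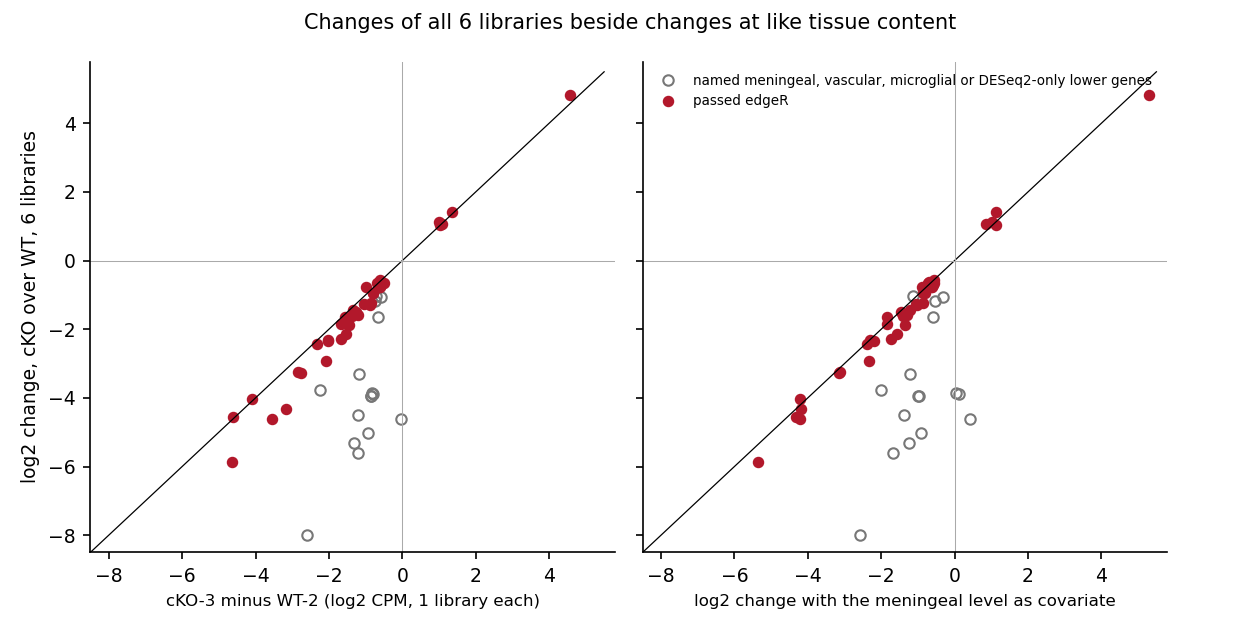
Change over all 6 libraries (y axis, log2 cKO over WT) against the difference between cKO-3 and WT-2 (left x axis) and against the change with the meningeal level as covariate (right x axis). Filled points, genes that passed edgeR, lie near the diagonal of equal values, and open points, named meningeal, vascular and microglial genes and other genes that only DESeq2 called lower, lie mostly below it. Both x axes rest on the meningeal list, so the place of the open meningeal points is fixed by that choice. Passing edgeR favours a small spread within genotypes, so filled and open points are no comparison for each other.

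Of the genes that rose, Neurog1 changed most. This proneural basic helix-loop-helix factor, which commits progenitors to a neuronal fate, was counted 7, 7 and 6 times in WT and 134, 199 and 218 times in cKO, or 0.368, 0.359 and 0.308 CPM against 7.52, 11.3 and 10.9 CPM. It was barely detected in each WT library and clearly present in each cKO library. Its log2 change was 4.82 (SE 0.30, edgeR adjusted p = 0.00759), 5.29 with the meningeal covariate and 4.56 between cKO-3 and WT-2. The prior count lowers that last value, since WT-2 had 7 counts. It lies on chromosome 13 at 56250478 to 56252180 (GRCm38).

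Ptx3, a secreted pentraxin of innate immunity, had 12.9, 12.7 and 16.8 CPM in WT and 42.2, 38.5 and 32.7 CPM in cKO. All cKO libraries were above all WT libraries, and the change was 1.42 on the log2 scale (SE 0.15, edgeR adjusted p = 0.0363). Nxph4, a secreted ligand of neurexins, rose from 24.0, 25.2 and 27.2 CPM to 50.1, 65.9 and 50.1 CPM (log2 1.12, SE 0.13). Nrn1, or neuritin, a membrane-anchored protein that promotes neurite growth, rose from 39.2, 35.3 and 38.2 CPM to 66.9, 90.5 and 72.3 CPM (log2 1.03, SE 0.12). 4933427D14Rik changed by 1.06 (SE 0.12), and the edgeR adjusted p of these last 3 was 0.0464. Ptx3 and Nxph4, like the other 39 calls, lost the threshold without WT-3.

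Among 16 genes of intermediate progenitors and neuroblasts Neurog1 was the only one that passed edgeR, and 6 were higher and 0 lower at unadjusted p under 0.05 (5 and 0 by DESeq2). DESeq2 called 2.08% of the genes tested by edgeR higher and 4.18% lower, 6.25% in all. Eomes, the T-box factor of intermediate progenitors, had 120, 125 and 146 CPM in WT and 232, 264 and 193 CPM in cKO (log2 0.82, SE 0.13, edgeR adjusted p = 0.103). Neurog2, the main proneural factor of the pallium, had 78.3, 65.4 and 83.4 CPM in WT and 107, 136 and 107 CPM in cKO (0.63, SE 0.13, edgeR adjusted p = 0.134). In both genes the genotypes did not overlap, as for 14% of all genes tested in that direction. Both were named by small p in the list, which favours this. Neurod1, a later factor of the same series that dentate granule cells also use, had -0.84 (edgeR unadjusted p = 0.165), and -0.15 with the meningeal covariate. The median of the list was 0.25, against -0.01 for all genes tested, 0.16 with the meningeal covariate and 0.23 between cKO-3 and WT-2.

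Cell division genes had values slightly above WT in cKO. Of 22, 0 passed edgeR, 12 were higher and 0 lower at unadjusted p under 0.05, and 4 were higher by DESeq2. Of all genes tested 9.1% were higher at unadjusted p under 0.05 and 2.08% by DESeq2. The replication helicase subunit Mcm5 had 40.6, 35.7 and 39.7 CPM in WT and 47.9, 54.3 and 52.6 CPM in cKO (log2 0.42, SE 0.08, edgeR adjusted p = 0.127). Mcm2, of the same helicase, had 0.44 and the spindle kinesin Kif11 0.33. The median of the list was 0.25, and 0.37 with the meningeal covariate. A fit without WT-1 and cKO-1 together was chosen after the data were seen. In it 15 of the 22 were higher at unadjusted p under 0.05, and 0 lower. Of its 17157 genes 5.6% were higher and 8.25% lower. Mki67, the usual marker of cycling cells, had -0.05.

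Of 19 radial glia genes 0 passed edgeR, with 2 higher and 3 lower at unadjusted p under 0.05 and 1 higher and 3 lower by DESeq2. Changes were above 0 for 5 and below 0 for 14, and the median of -0.08 was 0.13 with the meningeal covariate. Pax6, a pallial progenitor factor, had 45.2, 50.5 and 50.6 CPM in WT and 59.7, 68.5 and 65.5 CPM in cKO (log2 0.41, SE 0.08, edgeR adjusted p = 0.129). Slc1a3, the glial glutamate transporter GLAST, had 276, 274 and 279 CPM in WT and 136, 178 and 169 CPM in cKO (-0.78, SE 0.10, edgeR adjusted p = 0.0596). Tnc, a matrix glycoprotein of the stem cell niche, had -0.90. Sox2, Vim, Fabp7 and Hes1, the broad markers of these cells, lay between -0.08 and -0.03. Of 19 Notch pathway genes 0 passed edgeR (2 higher and 2 lower unadjusted, 0 and 1 by DESeq2), with the ligand Dll4 of endothelial and progenitor cells at -0.73 and the nuclear effector Rbpj at 0.28. Among 19 tested neural bHLH factors Neurog1 alone passed, and Id1, an inhibitor of these factors, had -1.0, and -0.35 with the meningeal covariate.

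Of 23 tested genes of the astroglial programme 2 fell, with 0 higher and 10 lower at unadjusted p under 0.05, and 8 lower by DESeq2. Bcan, or brevican, the chondroitin sulfate proteoglycan of the neural matrix, had 105, 113 and 122 CPM in WT and 10.7, 9.50 and 15.7 CPM in cKO. All 3 cKO libraries were far below all 3 WT libraries (log2 -3.24, SE 0.19, edgeR adjusted p = 0.00759). Aldoc, the aldolase isoform of astrocytes, fell from 134, 140 and 163 CPM to 19.9, 31.5 and 34.5 CPM (-2.35, SE 0.21, edgeR adjusted p = 0.0293). Bcan and Aldoc had -2.84 and -2.02 between cKO-3 and WT-2.

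The water channel Aqp4, named after its values were seen, had 4.10, 4.72 and 2.77 CPM in WT and 0.729, 1.30 and 1.20 CPM in cKO (log2 -1.83, SE 0.33, edgeR adjusted p = 0.113), and passed DESeq2. The early gliogenic factors Nfia (-0.10), Nfib (0.10) and Nfix (0.05) did not pass any test. The list median was -0.94, against -0.34 with the covariate and -0.36 between cKO-3 and WT-2. The part of tissue content in the shift was not tested. The mean log2 CPM of the WT libraries was 6.91, 6.45 and 6.43, and that of the cKO libraries 4.90, 5.49 and 5.94. S100b was not tested for low counts.

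Of 12 oligodendrocyte progenitor genes 0 passed edgeR, 0 were higher and 5 lower at unadjusted p under 0.05, and 4 were lower by DESeq2. The growth factor receptor Egfr had 19.9, 16.9 and 15 CPM in WT and 9.98, 4.41 and 5.25 CPM in cKO (log2 -1.40, SE 0.31, edgeR adjusted p = 0.137). Bcas1, of early oligodendrocytes, had -1.35 and Cspg4, the NG2 proteoglycan, -0.62. For these 3 the genotypes did not overlap, as for 15.3% of all genes tested in that direction. They were named by the smallest p in the list, which favours this. Of all genes tested 11.7% were lower at unadjusted p under 0.05 and 4.18% by DESeq2. The list median was -0.58, -0.80 with the meningeal covariate and -0.76 between cKO-3 and WT-2. The part of tissue content in it was not tested. Olig2 (-0.31) and Sox10 (-0.13), the lineage factors, did not pass.

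Fbln2, a fibulin of elastic fibres and basement membranes, had 61.1, 47.1 and 68.6 CPM in WT and 13.3, 10.5 and 11.5 CPM in cKO (log2 -2.32, SE 0.17, edgeR adjusted p = 0.0121). Spp1, osteopontin, fell from 15.1, 10.5 and 11.8 CPM to 2.02, 2.43 and 3.25 CPM (-2.27, SE 0.24, edgeR adjusted p = 0.0343). P4ha3, a subunit of collagen prolyl hydroxylase, fell from 12.6, 8.37 and 9.64 CPM to 1.01, 1.07 and 1.90 CPM (-2.92, SE 0.30, edgeR adjusted p = 0.0338). Eln, elastin, fell from 95, 73.1 and 76.6 CPM to 13.3, 17.2 and 25.4 CPM (-2.13, SE 0.25, edgeR adjusted p = 0.0464). WT-1, the library richest in meningeal RNA, was the highest for Spp1, P4ha3 and Eln, and WT-3 was the highest for Fbln2. With the meningeal covariate Fbln2 had -2.31, Spp1 -1.74, P4ha3 -2.32 and Eln -1.56. That covariate differs between the genotypes, and the part of tissue content in these changes was not tested.

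Among 19 tested neural matrix genes Bcan and Spp1 fell and 0 rose, with 2 higher and 8 lower at unadjusted p under 0.05. Tnr, the tenascin of perineuronal matrix, was among the higher with 33.9, 49.5 and 35.2 CPM in WT and 74.5, 68.1 and 78.9 CPM in cKO (log2 0.90, SE 0.16, edgeR adjusted p = 0.111), named after its values were seen. Of 21 fibulins, laminins and basement membrane genes Fbln2 alone fell, with 10 lower at unadjusted p under 0.05. All 21 had a change below 0, and the median of -0.96 became 0.07 with the meningeal covariate and -0.25 between cKO-3 and WT-2. Agrn, the heparan sulfate proteoglycan agrin, had 415, 387 and 408 CPM in WT and 312, 313 and 293 CPM in cKO (-0.40, SE 0.06, edgeR adjusted p = 0.0958).

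Grp and Cck, both neuropeptide genes, fell. Grp, gastrin-releasing peptide, had 19.8, 14.7 and 15.8 CPM in WT and 0.897, 0.735 and 0.50 CPM in cKO. It was close to undetected in each cKO library, with 10 to 16 counts against 286 to 377 in WT (log2 -4.56, SE 0.24, edgeR adjusted p = 0.00759). Cck, cholecystokinin, which pyramidal neurons and interneurons both express, fell from 51.4, 45.6 and 70.2 CPM to 18.1, 19.7 and 15.3 CPM (-1.65, SE 0.19, edgeR adjusted p = 0.0464). Pcsk2, the convertase that cleaves propeptides, fell from 42.0, 41.5 and 48.1 CPM to 27.2, 27.3 and 27.4 CPM (-0.68, SE 0.08, edgeR adjusted p = 0.0464).

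Of the 16 tested neuropeptide genes these 2 fell, 0 rose and 3 were lower at unadjusted p under 0.05, the third being Tac2 (-1.29). Sst, Npy and Penk, peptides mostly of interneurons, had -0.87, 1.59 and -1.05 and did not pass. Npy was high in cKO-1 alone, with 92.0 CPM against 7.70 to 12.5 CPM elsewhere, and had -0.25 with the meningeal covariate. The list median was -0.64, -0.54 with the meningeal covariate and -0.69 between cKO-3 and WT-2. Of 18 tested genes of interneurons and subpallium 0 passed edgeR (0 higher and 1 lower unadjusted, 0 and 0 by DESeq2), with a median of -0.05.

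Hpca, the calcium sensor hippocalcin, had 71.6, 71.2 and 77.0 CPM in WT and 49.2, 48.2 and 45.9 CPM in cKO (log2 -0.62, SE 0.06, edgeR adjusted p = 0.0338). Ksr1, a scaffold of the Ras and MAP kinase cascade, fell from 40.8, 41.5 and 41.1 CPM to 25.8, 25.2 and 26.1 CPM (-0.68, SE 0.06, edgeR adjusted p = 0.0255). Plcd4, a phospholipase C, fell by 1.49, Pde2a, a phosphodiesterase of cyclic nucleotides, by 0.77, and Pik3r1, the regulatory subunit of PI 3-kinase, by 0.65. Vxn, vexin, a promoter of neurogenesis, fell from 86.7, 92.2 and 77.6 CPM to 23.9, 34.1 and 36.6 CPM (-1.44, SE 0.17, edgeR adjusted p = 0.0464). Ephb3, a receptor of ephrin-B ligands, fell from 35.0, 28.1 and 35.1 CPM to 11.1, 13.7 and 15.2 CPM (-1.30, SE 0.15, edgeR adjusted p = 0.0464), as 1 of 33 guidance genes of which 5 were higher and 5 lower at unadjusted p under 0.05.

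Inka2, an inhibitor of the kinase PAK4, had 21.6, 19.7 and 23.8 CPM in WT and 5.94, 5.99 and 6.10 CPM in cKO (log2 -1.85, SE 0.12, edgeR adjusted p = 0.00759). The cKO libraries differed by little from each other and lay well below WT. Cdc42ep1, an effector of the GTPase Cdc42, fell by 1.86, Efs, an adaptor of Src kinases, by 0.95, and the septin Sept8 by 0.76. Dsc3, a desmosomal cadherin, had 2.68, 2.21 and 3.03 CPM in WT and 0, 0.226 and 0.15 CPM in cKO. Clrn1, clarin-1, was counted 53, 45 and 38 times in WT and 1, 2 and 2 times in cKO, and Folh1, the peptidase that cleaves N-acetylaspartylglutamate, had 29, 32 and 23 against 1, 4 and 3. No fold is given for these or for the gene model Gm4724 (86, 49 and 70 counts in WT, with 3, 0 and 0 in cKO), since the cKO counts are at the limit of detection.

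Slco1c1, the thyroid hormone transporter of brain capillaries and astroglia, had 72.2, 56.4 and 65.5 CPM in WT and 20.9, 22.4 and 22.8 CPM in cKO (log2 -1.55, SE 0.10, edgeR adjusted p = 0.00864). Thrsp, a thyroid hormone responsive factor of lipid synthesis, fell from 17.1, 13.3 and 15.7 CPM to 4.6, 5.26 and 5.05 CPM (-1.63, SE 0.15, edgeR adjusted p = 0.0255). Aox4, an aldehyde oxidase, fell by 2.44, Ass1, the argininosuccinate synthase, by 1.58, and Cyp4f16, a cytochrome P450, by 1.26. Paqr7, a membrane progestin receptor, fell by 0.76 and Rnf152, a ubiquitin ligase of lysosomes, by 0.57, with an edgeR adjusted p of 0.0464 for both. The gene model Gm43951 fell from 12.2, 18.0 and 12.5 CPM to 0.449, 1.19 and 0.949 CPM (-4.03, SE 0.32, edgeR adjusted p = 0.0196), and 2900026A02Rik, Zcchc24 and Tmem200c fell by 0.72, 1.23 and 0.95. Hpca and Paqr7 lie within 10 Mb of Arid1a on chromosome 4, where 2 of 262 tested genes were called (0.763%). Over all 16958 genes tested, 41 were called (0.242%).

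Slco1c1 was the only member of the vascular list that passed. The list median changed with the meningeal covariate, and the part of tissue content in it was not tested. Of 18 endothelial and mural genes 12 were lower at unadjusted p under 0.05 and 6 by DESeq2, with a median of -0.92 that was -0.07 with the meningeal covariate and -0.38 between cKO-3 and WT-2. Slco1c1 had -1.33 and -1.30 by those measures. The endothelial cadherin Cdh5 had 102, 25.9 and 29.1 CPM in WT and 18.0, 16.1 and 19.5 CPM in cKO, so WT-1 stood apart. Of 14 tested microglia and macrophage genes 0 passed edgeR, with 12 lower at unadjusted p under 0.05 and 9 by DESeq2. The list median of -1.21 was -0.25 with the meningeal covariate and -0.37 between cKO-3 and WT-2. Cx3cr1, the fractalkine receptor, had -1.19 and Csf1r, the receptor microglia need to survive, -1.16, and they had -0.53 and -0.10 with the covariate. The homeostatic microglial receptor P2ry12 had 4.68, 5.14 and 7.03 CPM in WT and 2.24, 2.88 and 3.10 CPM in cKO (-1.03, and -1.14 with the meningeal covariate). Mrc1, of border macrophages, had 32.6, 2.36 and 3.59 CPM in WT and 0.28, 1.02 and 1.30 CPM in cKO (-3.85, and 0.03 with the covariate).

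**Figure D4:**
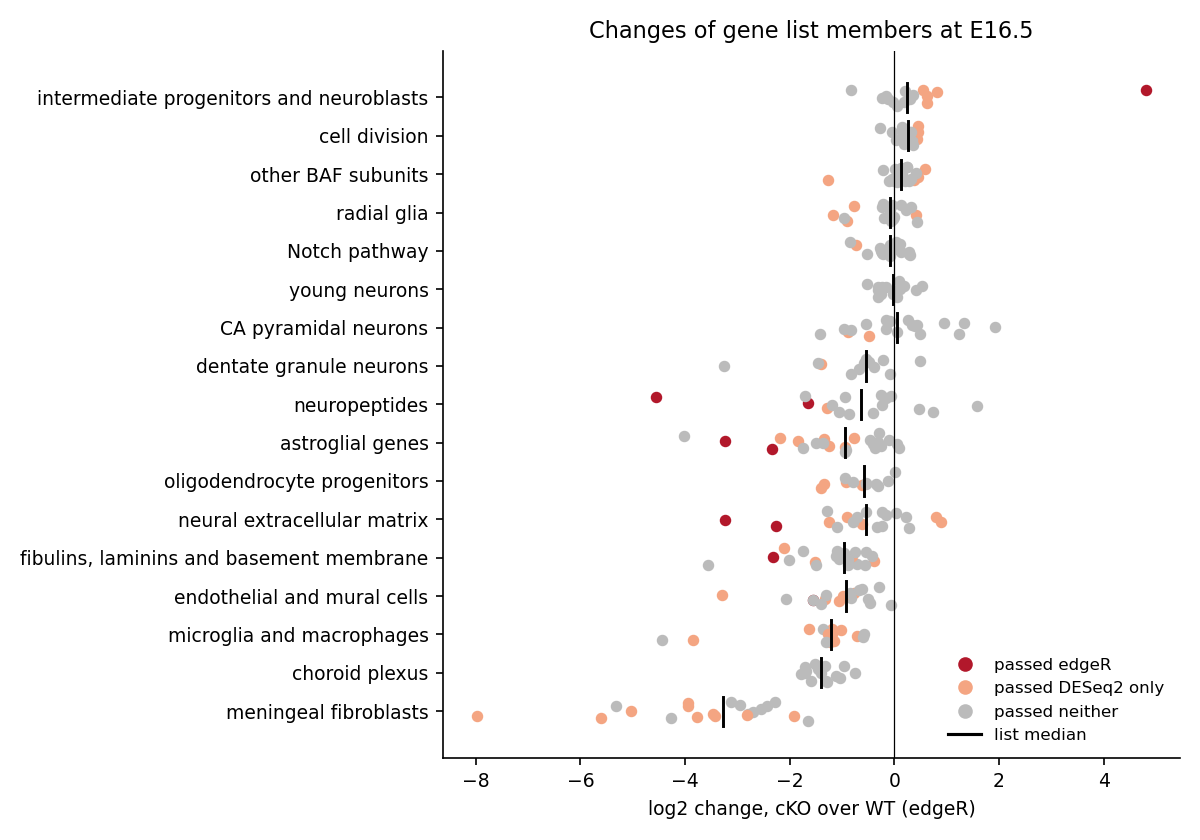
Log2 change of each tested member (x axis, cKO over WT, points) of the gene lists (y axis), with a black bar at each list's median. Red points passed edgeR, pale points DESeq2 only and grey points neither. The median is 0.25 for intermediate progenitors and for cell division, -0.94 for astroglial genes and -3.27 for meningeal fibroblasts, of which no member passed edgeR.

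Of 20 meningeal genes 0 passed edgeR, 14 were lower at unadjusted p under 0.05 and 10 by DESeq2. The transporter Slc22a6 had 67.8, 1.13 and 4.56 CPM in WT and 0.112, 0.0565 and 0.0999 CPM in cKO, and Aldh1a2, the retinoic acid enzyme of meninges, had 39.5, 2 and 4.82 CPM in WT and 0.0561, 0.283 and 0.999 CPM in cKO. In CPM, most of each difference was in WT-1. Their log2 changes of -7.98 and -5.03 became -5.05 and -2.36 without WT-1 and cKO-1. Of 15 choroid plexus genes 0 passed edgeR, 0 were past an unadjusted p of 0.05 and 0 passed DESeq2, and all 15 had a change below 0 with a median of -1.40. It became 0.71 with the meningeal covariate and -0.19 between cKO-3 and WT-2. The same held for 8 tested genes of ependyma and motile cilia, with 0 by each of these tests and a median of -1.17.

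Of 15 genes of young neurons 0 passed edgeR (0 higher and 3 lower unadjusted, 0 and 0 by DESeq2), with Rbfox3 at -0.30, the vesicular glutamate transporter Slc17a7 at -0.52 (-0.29 with the meningeal covariate) and a median of -0.03. That median was -0.27 with the covariate, -0.18 between cKO-3 and WT-2 and -0.30 without WT-1 and cKO-1. Of 13 tested dentate granule genes 0 passed edgeR (0 higher and 2 lower unadjusted, 0 and 1 by DESeq2), and the median of -0.55 was -0.15 with the meningeal covariate. Prox1 had a change of -1.39 (SE 0.34, edgeR adjusted p = 0.144) and -0.92 with the covariate. Of 19 CA pyramidal genes 0 passed edgeR (2 higher and 3 lower unadjusted, 0 and 2 by DESeq2), with a median of 0.05 that was -0.17 with the covariate and -0.09 between cKO-3 and WT-2. The adhesion molecule Nectin3, of the CA3 field, had 46.0, 44.5 and 50.6 CPM in WT and 36.1, 31.9 and 33.0 CPM in cKO (-0.48, SE 0.08, edgeR adjusted p = 0.109). Of 12 striatal markers 0 passed edgeR (1 higher and 1 lower unadjusted, 1 and 0 by DESeq2), and of 7 tested thalamic markers 0 passed (0 and 1 unadjusted, 0 and 1 by DESeq2). The striatal phosphoprotein gene Ppp1r1b had 24.0, 21 and 15.9 CPM in WT and 104, 63.2 and 45.0 CPM in cKO (1.80, SE 0.33, edgeR adjusted p = 0.125).

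The median of the cortical hem list changed sign with the meningeal covariate, and the part of tissue content in it was not tested. Of 17 tested hem and Cajal-Retzius genes 0 passed edgeR, with 0 higher and 3 lower at unadjusted p under 0.05 and 2 lower by DESeq2. Lhx5, a Cajal-Retzius factor, had 18.0, 15.6 and 16.4 CPM in WT and 4.77, 8.71 and 9.54 CPM in cKO (log2 -1.11, SE 0.25, edgeR adjusted p = 0.136; -0.71 with the covariate), and Reln, the reelin gene, had -0.43. The median of -0.29 was 0.50 with the meningeal covariate and 0.21 between cKO-3 and WT-2, and 0.18 without WT-1 and cKO-1. The canonical Wnt list behaved alike, with a median of -0.38 that was 0.22 with the covariate and 0.09 between cKO-3 and WT-2. Of its 23 tested genes 0 passed edgeR (3 higher and 5 lower unadjusted, 3 and 3 by DESeq2). Sfrp2, a secreted Wnt antagonist, had 13.9, 13.9 and 14.8 CPM in WT and 46.4, 37.3 and 25.9 CPM in cKO (1.36, SE 0.21, edgeR adjusted p = 0.0973), and Notum, a Wnt deacylase, had -2.83. Notum was highest in WT-1, with 7.15 CPM against 2.31 and 2.92 CPM, and had -1.25 with the meningeal covariate and -1.50 between cKO-3 and WT-2. Of 20 pallial patterning factors 0 passed edgeR (3 higher and 3 lower unadjusted, 3 and 1 by DESeq2), with Emx1 at 0.42 and Otx1 at 0.64 (0.31 with the covariate, 0.25 between cKO-3 and WT-2).

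Of 15 tested p53 targets 0 passed edgeR (4 higher and 2 lower unadjusted, 1 and 1 by DESeq2; Trp53inp1 0.37, Ccng1 -0.63). Of 15 tested immediate early genes 0 passed (1 and 1 unadjusted, 0 and 0 by DESeq2; Dusp1 0.24). Aldoc was the 1 call among 20 genes of glycolysis and the hypoxia response, and the stress gene Ddit4 had 0.52. Of 6 tested erythroid genes and 13 mitochondrial RNAs, 0 passed edgeR, an unadjusted p under 0.05 or DESeq2, with medians of -0.39 and -0.11. With the meningeal covariate the median also changed sign for the erythroid (0.16), Notch (0.19), thalamic (0.16), immediate early (0.07), pallial patterning (0.06), interneuron (0.03) and ependymal (0.27) lists, and the striatal median went from -0.46 to -0.06.

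The genes that DESeq2 called and edgeR did not were named by size of change. Among the 10 highest of 321 eligible (5 CPM or more on average in their higher genotype), Ier5l had 16.3, 22.1 and 16.1 CPM in WT and 88.3, 62.7 and 40.5 CPM in cKO (log2 1.81, SE 0.30, edgeR adjusted p = 0.111). Mc4r, the melanocortin receptor, had 1.47, 2.31 and 1.59 CPM in WT and 16.0, 4.18 and 3.20 CPM in cKO, and Rorb, a factor of layer IV neurons, had 7.36, 9.40 and 7.54 CPM against 34.3, 14.3 and 10.6 CPM. In both, cKO-1 was far above the other cKO libraries, and the difference between cKO-3 and WT-2 was 0.45 and 0.17. Ryr1, a calcium release channel, had 11.7, 14.8 and 15.1 CPM in WT and 36.6, 38.8 and 25.6 CPM in cKO (1.27, SE 0.19, edgeR adjusted p = 0.0814). Synpo2, Pdzrn3, Shisa2 and Trhr, the receptor of thyrotropin-releasing hormone, were further ones beside Ppp1r1b and Sfrp2, with 1.33, 1.32, 1.29 and 1.64. Between cKO-3 and WT-2 Ier5l had 0.87, Ryr1 0.78, Pdzrn3 0.83 and Trhr 0.74, and Trhr had 0.32 with the meningeal covariate. For Trhr cKO-1 was again the highest, with 13.0 CPM against 6.84 and 5.55 CPM in the other cKO libraries. The 10 lowest of 573 eligible held collagens, transporters and border macrophage genes: Slc22a6, Slc6a13, Mrgprf, Aldh1a2, Osr1, Col6a1, Col3a1, Col1a1, F13a1 and Mrc1. Each had its highest level in WT-1, and their changes of -7.98 to -3.85 were between -2.59 and -0.03 from WT-2 to cKO-3. The prior count draws the pair values toward 0, most for genes with few counts.

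At P21 edgeR called 445 of 17407 genes higher (2.56%) and 643 lower (3.69%), 6.25% in all. Of the 41 E16.5 calls 39 were tested there, 24 had the same direction, 7 passed in it and 1 passed in the other. The 7 include Arid1a, the targeted gene itself. The difference of the cKO effect between the ages was tested in 1 fit of the 10 RNA libraries, in which 243 of 18979 genes passed (1.28%; 0.527% with a higher and 0.753% with a lower effect at P21), and 18 of the 41 were among them. The 41 were picked by their change in the same E16.5 libraries. That choice favours both a share above that of all genes and differences opposite to the E16.5 change. All 18 kept their direction and an unadjusted p under 0.05 when any 1 library was left out, but passing depended on single libraries: 0 of the 18 passed without WT-1 of P21, 2 without cKO-2 of P21 and 5 without WT-2 of P21, and 4 to 18 without 1 of the E16.5 libraries.

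Bcan had 266 and 229 CPM in WT and 242 and 325 CPM in cKO at P21, a change of 0.19 (SE 0.16) against -3.24 at E16.5. The difference was 3.40 (SE 0.30, edgeR adjusted p = 0.00609). Grp had 8.16 and 7.72 CPM in WT and 3.18 and 4.06 CPM in cKO, and fell at both ages by unequal amounts (difference 3.39, SE 0.35, edgeR adjusted p = 0.0114). Spp1 had 0.651 and 2.56 CPM in WT and 6.46 and 5.87 CPM in cKO at P21, a change of 1.94 against -2.27 (difference 4.17, SE 0.56, edgeR adjusted p = 0.0234). Nrn1, which rose at E16.5, fell at P21 from 237 and 251 CPM to 168 and 178 CPM (-0.49, SE 0.10, edgeR adjusted p = 0.036). Ptx3 had like changes of 1.42 and 1.54, of which the second did not pass (edgeR adjusted p = 0.108). Cyp4f16, an enzyme of fatty acid oxidation, had like ones of -1.26 and -1.37, and Paqr7 -0.76 and -0.93, which passed at both ages. Arid1a had -0.64 and -1.08, and the difference did not pass (-0.48, edgeR adjusted p = 0.0988). Neurog1 was not tested at P21 for low counts. The part of tissue content in the difference between ages was not tested.

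**Figure D5:**
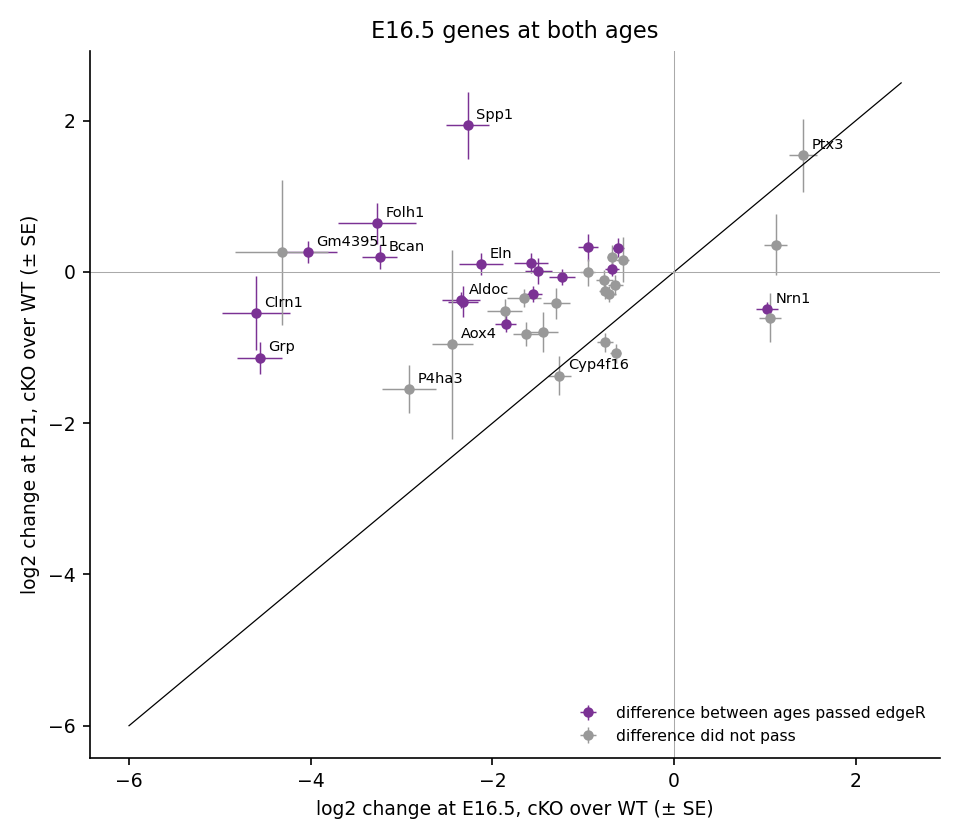
Log2 change at P21 (y axis) against that at E16.5 (x axis) of the 39 genes that passed edgeR at E16.5 and were tested at P21, with bars of 1 SE. Purple marks genes whose difference between ages passed edgeR. Most points lie above the diagonal of equal change, with Bcan at -3.24 and 0.19 and Spp1 at -2.27 and 1.94, while Ptx3 and Cyp4f16 lie close to it. The genes were picked by their E16.5 change, mostly a fall, which favours points above the diagonal.

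Histone marks were available at 3 weeks only, with 1 library per mark and genotype, and are described without a test. Of the 35 genes that fell other than Arid1a, 30 had a promoter in the RefSeq table, as did 11907 of the 16958 genes tested. Shares are of genes with a peak at any of their promoters. H3K4me3, the mark of active promoters, had a peak in 80.0% of these genes in WT (95% Wilson interval 62.7% to 90.5%) and 70.0% in cKO, against 84.1% and 85.8% of all genes. H3K27ac, the mark of active promoters and enhancers, had a peak at 13.3% and 43.3%, against 29.0% and 53.2%. H3K27me3, the Polycomb mark, had a peak at 1 of the 30 in WT (3.33%) and 6 of the 30 in cKO (interval 9.51% to 37.3%), against 1.86% and 10.1%. The cKO shares of H3K27ac and H3K27me3 were higher than the WT shares over all genes as well.

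The 6 genes with an H3K27me3 peak in cKO were Bcan, P4ha3, Hpca, Cdc42ep1, Cck and Ass1, and only Cdc42ep1 had one in WT. Their RNA changes at P21 were, in that order, 0.19, -1.55, 0.32, -0.52, -0.35 and 0.12, and only P4ha3 passed edgeR at that age. A link between these peaks and the RNA changes was not tested. At the Bcan promoter printed above, the authors' fold enrichment of H3K4me3 was 9.96 in WT and 11.5 in cKO, and an H3K27me3 peak of 8.42 was listed in cKO only. At the Neurog1 promoter, H3K27me3 had 6.29 in WT and 13.8 in cKO, and no H3K4me3 or H3K27ac peak overlapped it in either genotype. At the Ptx3 promoter, H3K4me3 had a peak of 5.45 in WT only and H3K27me3 one of 4.21 in cKO only. Intervals cover counting error only, and whether these marks differ at E16.5 was not measured.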

How the data were processed

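RNA was extracted with Trizol and sequenced on BGISEQ-500, per the labels' protocols. The authors deposited estimated counts per gene (Salmon 1.0.0, GRCm38, per the submitters' processing notes), of which 20.8% to 22.5% were not whole. The totals were 17662335 to 19760764 per library, and counts were rounded. The authors' deposited table also gives baseMean scores, log2 changes and p-values from DESeq2 1.26.0, per the same notes. The ChIP-seq peak lists hold, per the file headers, a pileup signal, a fold enrichment (ratio) and −log10 p- and q-values from MACS2, on reads aligned with Bowtie2 2.3.5.1 per the submitters' processing notes.

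Genes were kept by filterByExpr, scaled by TMM and tested with edgeR 4.0.16 (R 4.3.3; quasi-likelihood F test, robust, current quasi-dispersion estimate) with Benjamini-Hochberg adjustment at 0.05. The age difference is the interaction over 10 RNA libraries. DESeq2 1.42.0, limma 3.58.1, other scalings, filters, covariates and leaving out each library were alternatives. Nothing says that replicates came from separate litters, so p-values measure the spread between these samples. An exact permutation test of 3 against 3 cannot go below p = 0.1 and was not used. The scripts were tested on simulated counts.

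The members and lists were chosen with earlier results of these data known. Named by rule were Arid1a, the 25 called genes with the smallest p, and up to 3 per list by p. Up to 10 per direction called by DESeq2 only were also named, among genes whose genotypes do not overlap. Other list members, among them Mki67, Sox2, Vim, Fabp7, Hes1, Neurod1, Nfia, Nfib, Nfix, Olig2, Sox10, Sst, Npy and Penk, were named after their values were seen. A promoter peak is one that overlaps the printed window by at least 1 bp. Promoters are from RefSeq, GRCm38.p6.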

Additional observations from a re-analysis of the deposited data

Results flagged for a closer look

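The effect of the genotype differed between ages for 25 named genes, by edgeR's test of the difference itself (the log2 change at P21 minus that at E16.5, over 10 RNA libraries, adjusted over 18979 genes). Among genes of the matrix and glia the difference was 3.40 for Bcan, 1.89 for Fbln2, 4.17 for Spp1, 2.19 for Eln, 1.93 for Aldoc, 1.05 for Slc1a3 and 1.46 for Sparcl1, a matrix protein of astrocytes. It was 3.39 for Grp, 0.68 for Pcsk2, 0.90 for Hpca and -1.56 for Nrn1 among neuronal genes, and -2.12 for the calcium channel Ryr1. It was 1.13 for Inka2, 1.23 for Slco1c1, 1.47 for Plcd4, 1.13 for Zcchc24, 1.66 for Ass1, 1.23 for Tmem200c and 4.25 for the gene model Gm43951. For Clrn1 and Folh1 the fitted differences of 4.02 and 3.87 rest on 1 to 4 counts per E16.5 cKO library. For the progenitor and division genes Mcm2, Kif11 and Emx1 it was -0.98, -1.30 and -1.21, and for Id1, an inhibitor of bHLH factors, 2.3. Of the 41 genes called at E16.5, the 18 among these kept their direction when any 1 library was left out, and 0 of them passed without WT-1 of P21. These 18 were picked by their change in the same E16.5 libraries, which favours such differences. The P21 arms hold 2 libraries each. The part of tissue content in these differences was not tested.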

How the results depend on the processing

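At E16.5 the 5 higher and 36 lower genes became 352 and 714 with DESeq2, 4 and 21 with limma-voom, 2 and 19 with edgeR's older quasi-dispersion, 2 and 22 with upper-quartile scaling, 3 and 25 with library totals, 10 and 63 with no filter, and 41 and 171 with all 10 RNA libraries in the fit. They were 0 and 4 with Xist as covariate, 0 and 0 with the meningeal level, 2 and 21 with the choroid plexus level, and 2 and 2 without WT-1 and cKO-1, an alternative chosen after seeing the data. Leaving out 1 library gave 0 to 4 higher and 0 to 14 lower. The labels do not say whether replicate numbers pair the samples. Deviations of same-numbered libraries had correlations of -0.228, -0.0208 and -0.492. These cannot decide the question, since the libraries also differ in tissue content. With the replicate block 0 genes were higher and 0 lower by edgeR (722 and 1351 at an unadjusted p under 0.05), and the library deviating most like its WT number was never the same-numbered cKO library. For the difference between ages, 100 genes with a higher and 143 with a lower effect at P21 became 418 and 761 with DESeq2, 0 and 1 with the replicate block within age, and 2 to 252 and 3 to 317 without 1 library. The cause of these shifts was not tested. Directions turned with the meningeal covariate for F13a1 (0.13), Mrc1 (0.031), Cdh5 (0.16), Osr1 (0.41), Hydin (0.19), Enpp2 (0.24), Hba-a2 (0.25), Kl (0.10), Hbb-bs (0.17), Folr1 (0.66) and Ttr (1.05), and with the choroid plexus covariate for Folr1 (0.071) and Ttr (0.17). Xist had 0.0062 with itself as covariate and -0.66 to 0.50 without 1 library. The share of genes that fell with an H3K4me3 peak at any promoter in cKO was 86.7% with a window of 1 kb and 70.0% without it. Depth limits Clrn1, Folh1, Dsc3 and Gm4724, whose cKO counts are near 0.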
